A study of Mus musculus with 8 samples.

Results

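The matricellular and condensation matrix genes described here are 9 genes for secreted proteins of the cell surroundings: Fn1, Postn, Sparc, Sparcl1, Smoc2, Tnc, Tnn, Thbs2 and Cthrc1. They were taken by gene name from the table of counts, which holds 35896 genes, and all 9 were found there and passed the filter on low counts. They were measured by bulk RNA-seq in molar tooth germs of mouse embryos, the rudiments from which molars form, explanted and kept in culture for 1 day. The germs at E12.5 were exposed to SIS3, an inhibitor of Smad3, to SB431542, which blocks the type I receptors that TGF-beta and activin use, or to the solvent DMSO. A further group was explanted at E13.5 and given DMSO. Every group, the DMSO groups included, came from BRE-GFP embryos, which carry a fluorescent reporter of BMP-Smad signalling, and was cultured in the same serum-containing medium. Doses and the number of germs per sample were not stated in the labels used here, and the labels do not say whether the members of a pair came from separate cultures, so p-values may measure technical spread only.

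Each of the 4 groups has 2 deposited columns. In the SB431542, E13.5 DMSO and E12.5 DMSO groups the totals of the paired columns differed by at most 0.00749%, and for genes with 1 annotated transcript the squared difference was 1.22 to 1.3 times what a random split of 1 library gives (a median-based ratio), against 8.05 times in the SIS3 pair. The ratio was larger, 2.36 to 3.12 in these groups and 16 in the SIS3 pair, for genes with 7 or more transcripts, and a ratio from means gave 1.59 to 2.81 and 24.4 for genes with 1 transcript. Among the members, 27 such pairs of values were compared, the ratio of the columns ran from 0.915 to 1.08, and 1 pair (Fn1 in E12.5 DMSO, 17416 and 18793 counts) differed beyond sampling noise. Each of these pairs thus differed by about the sampling noise or up to a few times more, far less than the SIS3 pair, and was summed and counted as 1 sample, which left 5 libraries: 2 of SIS3, with totals of 5995709 and 9427262 counts, and 1 each of SB431542 (28161788 counts), E13.5 DMSO (17519118 counts) and E12.5 DMSO (30975010 counts). The SIS3 pair was prepared with the TruSeq RNA kit v2 and all the others with the SMARTer Universal Low Input kit, so in every SIS3 value the inhibitor and the kit cannot be told apart, and no SIS3 comparison can be made within 1 kit. Levels are CPM, that is counts scaled to a common library total, and 3 counts correspond to 0.097 to 0.5 CPM. As to the tissue, the summed level of 12 dental mesenchyme markers, which include Msx1 and Pax9, was 3351 and 2907 CPM in the SIS3 libraries, 3957 CPM in SB431542, 2885 CPM in E13.5 DMSO and 3948 CPM in E12.5 DMSO. The marker Fgf3 had 0 counts in both SIS3 libraries and was above 0 in the others.

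Matricellular proteins are secreted into the extracellular matrix and act mainly by binding cell surface receptors, growth factors and collagen rather than by bearing load. Tooth formation passes through a bud stage in which neural-crest-derived mesenchyme condenses around the ingrowing dental epithelium, and tenascin C and fibronectin are long-known components of the matrix of that condensing mesenchyme. TGF-beta, acting through Smad2 and Smad3, is a classical inducer of fibronectin, periostin and other matrix genes in fibroblasts. The members fall into a fibril scaffold (Fn1), the SPARC family of calcium-binding glycoproteins (Sparc, Sparcl1 and Smoc2), the tenascins (Tnc, and Tnn for tenascin W), the fasciclin-domain protein periostin (Postn), a thrombospondin (Thbs2) and a secreted protein with a short collagen repeat (Cthrc1).

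The members are spread over the genome (GRCm38, the build named mm10 in the submitters' notes). Fn1 (ENSMUSG00000026193) lies on chromosome 1 from 71585520 to 71653200 and Tnn (ENSMUSG00000026725) on chromosome 1 from 160085029 to 160153580, both on the minus strand. Smoc2 (ENSMUSG00000023886; chromosome 17, 14279506 to 14404790, plus strand) and Thbs2 (ENSMUSG00000023885; chromosome 17, 14665500 to 14694235, minus strand) are neighbours, separated by 260.7 kb that hold 2 annotated genes, of which 0 code for protein. Postn (ENSMUSG00000027750) lies on chromosome 3 from 54361109 to 54391037 on the plus strand, and Tnc (ENSMUSG00000028364) on chromosome 4 from 63959785 to 64047015 on the minus strand. Sparcl1 (ENSMUSG00000029309) lies on chromosome 5 from 104079111 to 104113733 and Sparc (ENSMUSG00000018593) on chromosome 11 from 55394500 to 55423183, both on the minus strand. Cthrc1 (ENSMUSG00000054196) lies on chromosome 15 from 39076932 to 39087121 on the plus strand. Little of their sequence is shared with other genes, at most 3.891% of the 31-base words of a member's exons (Fn1). Exons of Fn1 overlap those of the opposite-strand gene Apol7d in part, and exons of Tnc those of 8030451A03Rik. The strand setting of the counting is not stated, so reads of each such pair cannot be told apart.

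Promoter windows of 250 bases before the start site (RefSeq, GRCm38.p6) were held for 5 members, with 7 entries in all. They are shown for Thbs2 and Sparc, the members with the smallest adjusted p-values in SIS3 against DMSO, and for Postn and Tnc, the most abundant of the members that differed by over 2-fold between the SIS3 libraries. All are written 5′ to 3′ along the gene's strand, and capitals mark every match to 3 motifs searched on both strands. The Smad motif was CAGAC, which reads GTCTG when it lies on the opposite strand. The AP-1 motif was TGANTCA. The TATA box was TATAAA, which reads TTTATA when it lies on the opposite strand.
Thbs2, chr17:14694263-14694512, minus strand: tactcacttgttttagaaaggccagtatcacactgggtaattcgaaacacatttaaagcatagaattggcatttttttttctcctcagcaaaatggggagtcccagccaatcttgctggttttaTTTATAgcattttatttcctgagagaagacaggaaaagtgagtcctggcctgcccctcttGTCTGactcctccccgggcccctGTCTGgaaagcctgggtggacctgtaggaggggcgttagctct
Sparc, chr11:55420081-55420330, minus strand: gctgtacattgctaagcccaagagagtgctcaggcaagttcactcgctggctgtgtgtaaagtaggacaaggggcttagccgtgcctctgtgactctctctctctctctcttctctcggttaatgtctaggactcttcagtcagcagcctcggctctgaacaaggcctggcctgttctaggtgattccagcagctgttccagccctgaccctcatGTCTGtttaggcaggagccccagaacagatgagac
Postn, chr3:54360857-54361106, plus strand: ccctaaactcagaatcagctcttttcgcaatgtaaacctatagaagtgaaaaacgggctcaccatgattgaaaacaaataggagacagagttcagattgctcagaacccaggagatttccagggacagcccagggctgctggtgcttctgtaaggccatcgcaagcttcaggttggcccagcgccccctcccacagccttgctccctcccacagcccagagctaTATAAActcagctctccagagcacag
Tnc, chr4:64047016-64047265, minus strand: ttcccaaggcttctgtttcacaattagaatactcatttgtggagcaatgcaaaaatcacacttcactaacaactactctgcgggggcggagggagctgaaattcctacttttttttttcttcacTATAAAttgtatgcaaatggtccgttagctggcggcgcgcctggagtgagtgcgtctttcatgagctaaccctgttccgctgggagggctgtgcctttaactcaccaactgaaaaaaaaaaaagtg
The Thbs2 window held 2 Smad motifs and 1 TATA box, the Sparc window 1 Smad motif, and the Postn and Tnc windows 1 TATA box each. These Postn and Tnc windows end next to the annotated gene start, and the windows of their other RefSeq entries, not printed, held 1 Smad motif each. The window of Tnn, not printed, held none of the motifs. No match overlapped another. The Sparc window lies inside the span that the annotation gives to the gene, since the start site in RefSeq is downstream of the annotated 5′ end. Of 32851 promoter windows of the same length, 42.2% held the Smad motif, 6.75% the AP-1 motif and 12.4% a match to TATAAA. The Smad motif is thus common among promoters, and the matches to all 3 motifs describe letters only.

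The members were abundant. Together they took 0.45% and 0.292% of all counts in the SIS3 libraries, 0.324% in SB431542, 0.433% in E13.5 DMSO and 0.408% in E12.5 DMSO. Fn1, Postn and Tnc made up 88.7% and 82.4% of the members' counts in the SIS3 libraries, 77.5% in SB431542, 72.8% in E13.5 DMSO and 75.6% in E12.5 DMSO. To compare genes with each other, levels were divided by the length of the longest coding transcript, from 1.166 kb (Cthrc1) to 8.315 kb (Fn1). Per length, Postn stood first in every library, at 524.8 and 204.6 CPM per kb in SIS3, 311.4 in SB431542, 395.7 in E13.5 DMSO and 361.1 in E12.5 DMSO. In E12.5 DMSO the order of levels below Postn was Sparc (154.6 CPM per kb), Fn1 (140.6), Tnc (106.4), Smoc2 (74.96), Thbs2 (41.92), Cthrc1 (31.37), Sparcl1 (17.75) and Tnn (16.07), and each neighbour differed from the next beyond counting error. Sparc was second in E12.5 DMSO, E13.5 DMSO and SB431542, but in the SIS3 libraries, at 34.23 and 43.35 CPM per kb, it stood below Fn1 and Smoc2. Thbs2, at 5.036 and 2.861 CPM per kb in the SIS3 libraries, was within counting error of its neighbour Sparcl1 there, with a ratio of the upper to the lower of 1.24 (95% counting interval 0.96 to 1.58) in library 1 and of 1.01 (0.759 to 1.34) in library 2. In E13.5 DMSO the levels of Thbs2 and Cthrc1 were within counting error of each other (ratio 1.05, 0.978 to 1.12). These intervals cover counting error only, since the labels name no molecular identifiers. The order also depends on the length used. All exons together hold 3788 bases for Sparc, 11685 for Fn1 and 8702 for Postn. Their longest coding transcripts hold 2300, 8315 and 3205 bases. Close steps, such as Sparc over Fn1 in E12.5 DMSO (ratio 1.1), are therefore not settled. Another is Postn over Fn1 in SIS3 library 2 (ratio 1.11), so first place of Postn in every library holds for this length only.

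**Figure D1:**
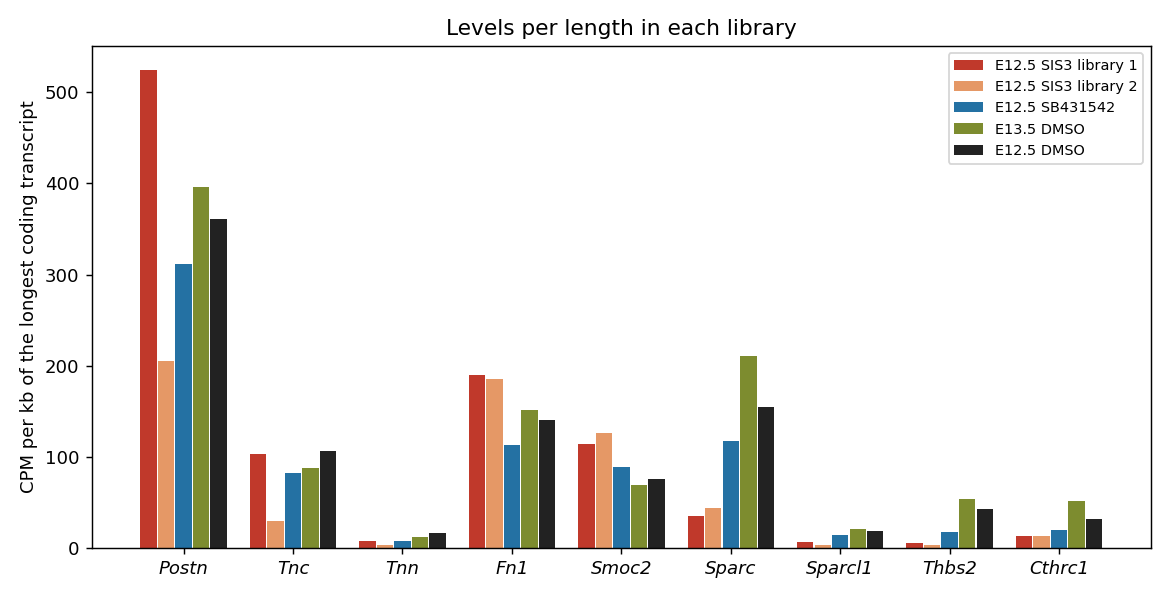
Bars give the level of each gene as CPM per kb of its longest coding transcript (vertical axis, from 0) in each of the 5 libraries, with no error bars because most groups are 1 library. Postn has the tallest bar in every library, and the Sparc and Thbs2 bars of the SIS3 libraries are far below those of E12.5 DMSO.

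The first comparison asked how the members stood after 1 day with SIS3 at E12.5. Thbs2, Sparc and Sparcl1 fell in the SIS3 libraries, by 11.2-fold, 4.19-fold and 4.14-fold, while Fn1 and Smoc2, the only members with fold changes above 0, did not pass the test. Of the 9 members 3 were called lower, where 3.03% of all 19022 genes tested were, and 0 were called higher, where 0.794% of all genes were (3.82% in either direction). Fold changes were negative for 7 of 9 members and for 49.8% of all genes. The median log2 fold change of the members was -1.35, and that of all genes was 0.0. In a bulk sample, fewer cells of a type and less RNA per cell cannot be told apart.

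Thbs2, which encodes a secreted regulator of collagen fibril assembly and an inhibitor of blood vessel growth, had 29.69 and 16.87 CPM in the SIS3 libraries (178 and 159 counts), against 247.1 CPM in E12.5 DMSO (7654 counts in 2 columns of 248.7 and 245.5 CPM). Both SIS3 libraries were far below DMSO, and the SIS3 libraries differed from each other by less than 2-fold. The log2 fold change was -3.49 (SE 0.36, 95% CI -4.27 to -2.70, n = 2 against 1; edgeR quasi-likelihood test, Benjamini-Hochberg adjusted p = 0.000415). It was the lowest of the 9 members.

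Sparc, which encodes osteonectin, a collagen-binding glycoprotein abundant in mineralising tissue, had 78.72 and 99.71 CPM in the SIS3 libraries, against 355.5 CPM in E12.5 DMSO. The SIS3 libraries lay close together and well below DMSO, with a log2 fold change of -2.07 (SE 0.28, 95% CI -2.67 to -1.46, edgeR adjusted p = 0.00121). Its relative Sparcl1, which encodes hevin, had 17.18 and 7.85 CPM in the SIS3 libraries, against 48.97 CPM in E12.5 DMSO. Sparcl1 was less abundant and its SIS3 libraries lay further apart, and its log2 fold change of -2.05 (SE 0.46, 95% CI -3.07 to -1.03) was near the threshold, with an edgeR adjusted p of 0.040. Its call ended under 6 of 14 alternatives, among them a fit without column 2 of E12.5 DMSO (adjusted p = 0.0533), whereas Thbs2 and Sparc were called under 14 of 14. Smoc2, the third relative, which encodes a matrix protein of basement membranes, had 322.9 and 355.9 CPM in the SIS3 libraries, against 212.3 CPM in E12.5 DMSO. Both SIS3 libraries were above DMSO, but the log2 fold change of 0.60 (SE 0.29, 95% CI -0.02 to 1.23) did not pass the test (edgeR adjusted p = 0.318).

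Cthrc1, which encodes a secreted protein found at sites of matrix remodelling, had 14.68 and 15.38 CPM in the SIS3 libraries, against 36.58 CPM in E12.5 DMSO. The SIS3 libraries were nearly equal, and the log2 fold change of -1.35 (SE 0.36, 95% CI -2.13 to -0.58) missed the threshold by little (edgeR adjusted p = 0.0548). Fn1, which encodes the fibronectin bound by integrins of cell surfaces, had 1581 and 1539 CPM in the SIS3 libraries, against 1169 CPM in E12.5 DMSO. Its levels were thus above DMSO in both SIS3 libraries, with a log2 fold change of 0.34 (SE 0.27, 95% CI -0.23 to 0.92, edgeR adjusted p = 0.580). The interval holds 0.

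**Figure D2:**
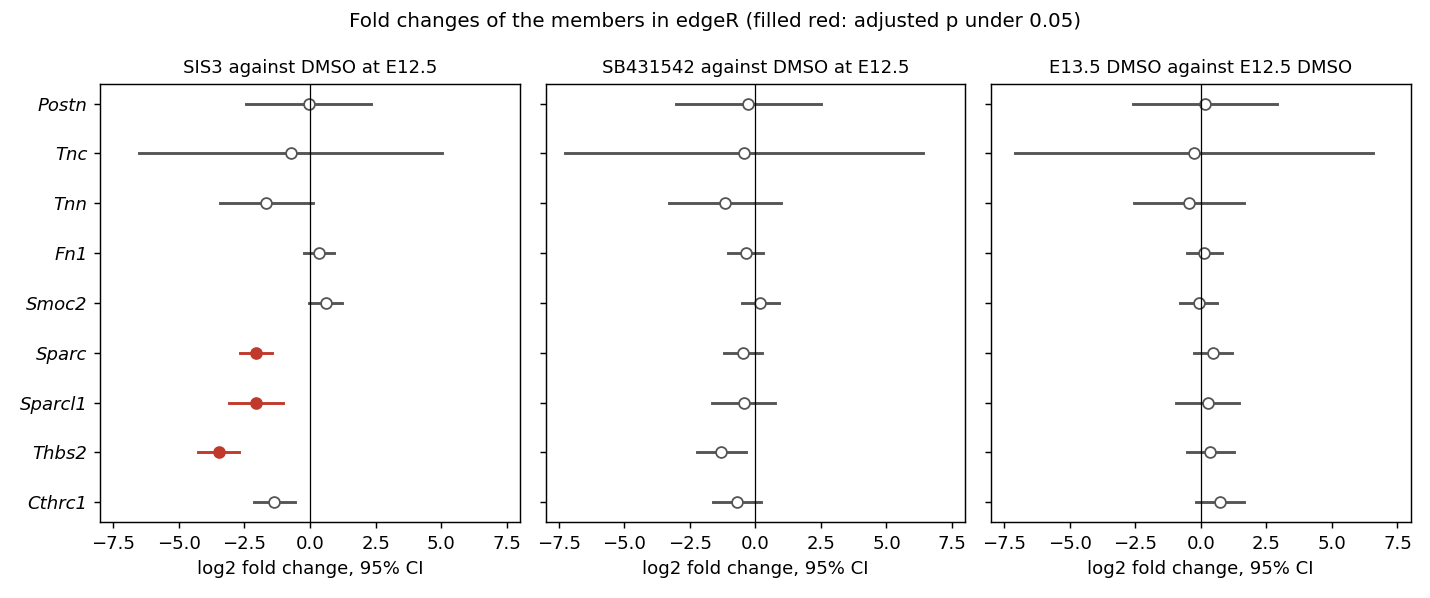
Points are log2 fold changes from edgeR and lines their 95% confidence intervals (horizontal axis) for each gene, in panels for SIS3 against DMSO, SB431542 against DMSO and E13.5 DMSO against E12.5 DMSO. The filled red points, at an adjusted p under 0.05, are Thbs2, Sparc and Sparcl1 in the SIS3 panel, and the intervals of Postn, Tnc and Tnn are wide in all panels.

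The tenascins and periostin differed between the SIS3 libraries themselves. Tnc, which encodes the large adhesion-modulating glycoprotein of condensing mesenchyme, had 733.4 and 208.8 CPM in the SIS3 libraries, against 755.8 CPM in E12.5 DMSO, so that library 1 was near DMSO and library 2 far below it. Tnn had 45.37 and 16.34 CPM in the SIS3 libraries, against 93.46 CPM in E12.5 DMSO, with both below DMSO. Postn, whose product binds collagen and is a marker of periosteum and periodontal ligament, had 1682 and 655.7 CPM in the SIS3 libraries, against 1157 CPM in E12.5 DMSO, so that 1 library was above DMSO and the other below it. None of these fits was called: the log2 fold changes were -0.74 for Tnc (SE 1.16, edgeR adjusted p = 0.854), -1.67 for Tnn (SE 0.65, adjusted p = 0.323) and -0.05 for Postn (SE 0.73, adjusted p = 1.0). The intervals were wide, from -6.52 to 5.03 for Tnc.

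Taken as ratios of SIS3 library 1 to library 2, on TMM-normalised counts, Tnc stood at 3.62 (95% counting interval 3.43 to 3.82), Tnn at 2.86 (2.34 to 3.51), Postn at 2.64 (2.56 to 2.73) and Sparcl1 at 2.26 (1.66 to 3.08). These 4 of 9 members were at least 2-fold higher in library 1, as were 4.63% of the 12345 genes averaging at least 5 CPM, and 0 members were at least 2-fold higher in library 2, as were 3.89% of those genes. Thbs2 had a ratio of 1.81, Fn1 of 1.06, Cthrc1 of 0.984, Smoc2 of 0.936 and Sparc of 0.814. Markers of other tissues also differed between these libraries. The summed level in library 1 and library 2 was 106.2 and 538.5 CPM for 10 epithelium markers, 173.1 and 792.9 CPM for 8 chondrocyte markers, and 1290 and 589.4 CPM for 7 erythroid markers. Their part in the split of Tnc, Tnn and Postn was not tested.

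**Figure D3:**
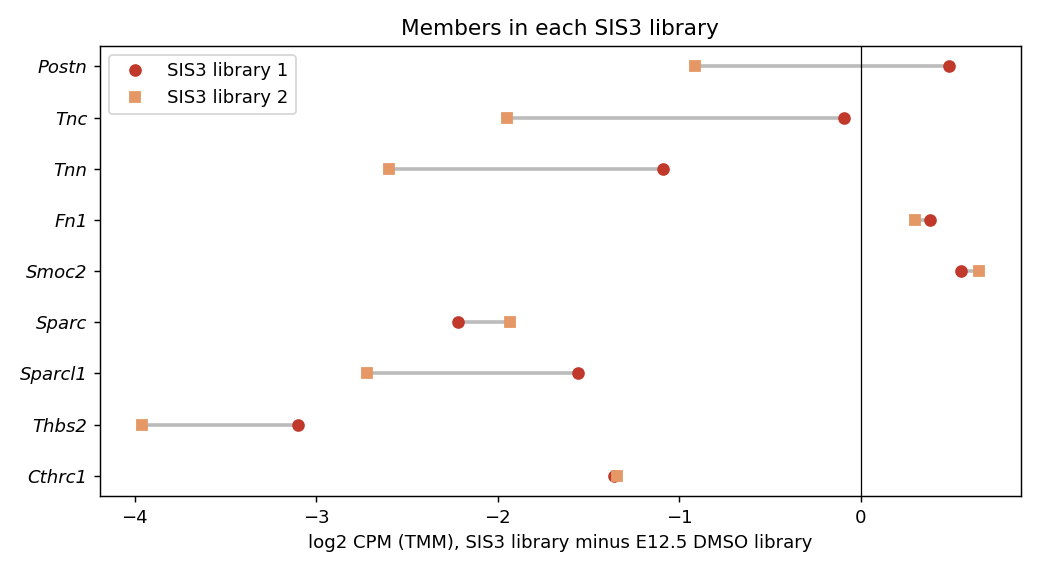
Each row is a gene, and the circle and the square give the log2 level in SIS3 library 1 and SIS3 library 2 minus that in E12.5 DMSO (horizontal axis, TMM-normalised log2 CPM). Postn lies on both sides of 0, at 0.49 and -0.91, Tnc at -0.09 and -1.95, while Thbs2 at -3.10 and -3.96 and Sparc at -2.22 and -1.93 lie left of 0 in both libraries.

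In the SIS3 libraries, where Thbs2, Sparc and Sparcl1 fell, the summed markers of vessels, macrophages, bone and muscle were lower too. Sparc and Sparcl1 are known to be expressed by endothelial cells as well as by mesenchyme. All 10 endothelial markers fell, and their summed level was 49.87 and 42.54 CPM in the SIS3 libraries, against 434.5 CPM in E12.5 DMSO, with 0 of 10 at 0 counts. Of 10 macrophage markers, 5 fell, and their summed level was 5.838 and 4.879 CPM in SIS3, against 58.98 CPM in E12.5 DMSO, with C1qa at 0 in library 1 and C1qb, C1qc and Adgre1 at 0 in library 2. Of 8 osteoblast markers, 4 fell, among them Sp7, and their summed level was 227 and 212.7 CPM in SIS3, against 614.8 CPM in E12.5 DMSO, with Bglap at 0 in both SIS3 libraries and Ibsp and Ifitm5 at 0 in library 1. Of 7 pericyte markers tested, 2 fell, and the summed level of all 8 was 395.6 and 420.3 CPM in SIS3, against 675.1 CPM in E12.5 DMSO. Of 8 skeletal muscle markers, 3 fell, and their summed level was 266.2 and 219.8 CPM in SIS3, against 752.5 CPM in E12.5 DMSO. Among the 12 dental mesenchyme markers, 2 fell, Dlx2 and Fgf3, and 10 had negative fold changes (median log2 fold change -0.505). The part of these cell types in the fall of the members was not tested.

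**Figure D4:**
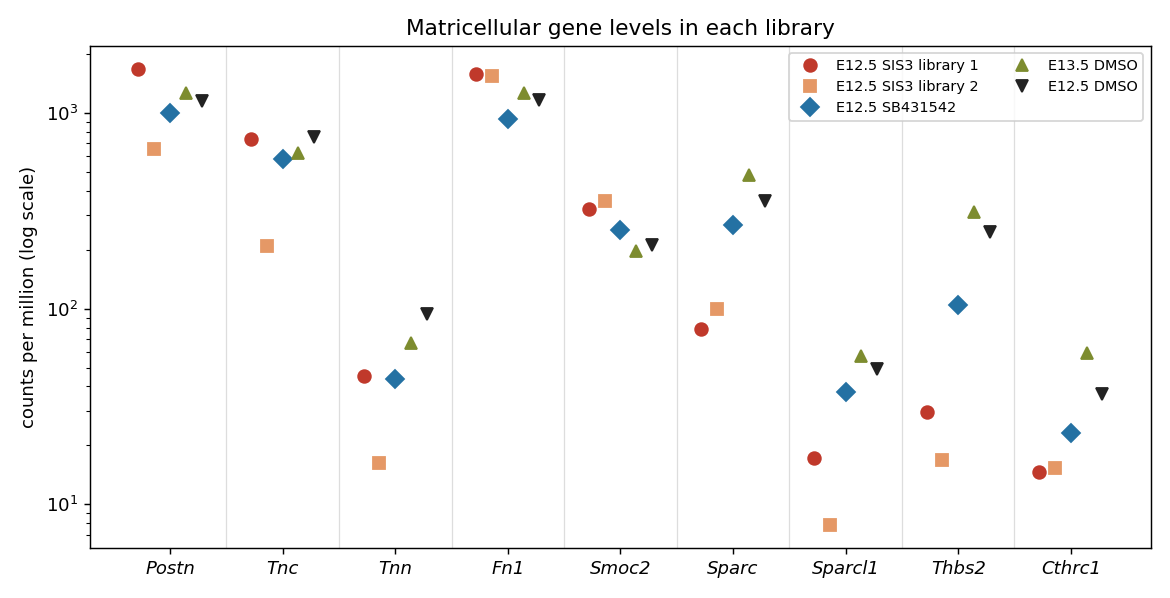
Points give the level of each gene in CPM (vertical axis, log scale) in the 5 libraries, which are the 2 SIS3 libraries, SB431542, E13.5 DMSO and E12.5 DMSO. For Thbs2, Sparc, Sparcl1 and Cthrc1 both SIS3 points lie below the other 3, and for Smoc2 and Fn1 they lie above them.

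The second comparison asked what SB431542 changed at E12.5, within 1 kit but with 1 library against 1. None of the members passed the test, and neither did any of the 19022 genes (0.0% in either direction). Before adjustment, 108 genes were higher and 127 lower at a p under 0.05 in edgeR, while the DESeq2 alternative called 4 genes, all of them lower, so a count of 0 is a property of the whole comparison and says little on the members. Their fold changes were negative for 8 of 9, where 47.4% of all genes were negative, with a median log2 fold change of -0.44 against 0.00161 over all genes.

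Thbs2 had 104.4 CPM in SB431542, in columns of 106.3 and 102.4, against 247.1 CPM in E12.5 DMSO. That is a TMM-normalised count ratio of 0.407 (95% counting interval 0.39 to 0.425) and a log2 fold change of -1.30 (SE 0.42, 95% CI -2.22 to -0.37), with an edgeR p of 0.0106 before and of 1.0 after adjustment. It was the lowest ratio among the members. Tnn had 43.50 CPM in SB431542, against 93.46 CPM in E12.5 DMSO, a count ratio of 0.449 (0.419 to 0.48) with a log2 fold change of -1.16 (SE 0.78). Cthrc1 had 23.15 CPM in SB431542, against 36.58 CPM in E12.5 DMSO (log2 fold change -0.71, SE 0.43). All 9 members differed from DMSO by more than counting error, 8 downward. The share of all genes that did so was not computed, so this count says nothing particular to the members. The fit, which borrows its spread from the SIS3 pair, called none of the members.

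The most abundant members lay closer to DMSO. Fn1 had 934.9 CPM in SB431542, against 1169 CPM in E12.5 DMSO, and Postn 998.0 CPM, against 1157 CPM. Tnc had 579.0 CPM in SB431542, against 755.8 CPM in E12.5 DMSO. Of the SPARC family, Sparc had 268.3 CPM in SB431542, against 355.5 CPM in E12.5 DMSO, and Sparcl1 had 37.53 CPM, against 48.97 CPM. The log2 fold changes of these 5 genes ran from -0.46 (Sparc) to -0.27 (Postn). Smoc2 was the exception in sign, at 251.6 CPM in SB431542, against 212.3 CPM in E12.5 DMSO, a count ratio of 1.14 (1.1 to 1.18) and a log2 fold change of 0.19 (SE 0.33). The summed level of the 10 epithelium markers was 71.30 CPM in SB431542, against 270.1 CPM in E12.5 DMSO, and that of the 10 endothelial markers was 510.4 CPM, against 434.5 CPM. It was 439.5 CPM in SB431542, against 614.8 CPM in E12.5 DMSO, for 8 osteoblast markers, of which 8 had negative fold changes. It was 26.28 CPM in SB431542, against 51.65 CPM, for 5 tendon markers, of which 5 were negative, and 267.0 CPM, against 333.2 CPM, for 8 chondrocyte markers, of which all 7 tested were negative. None of these markers was called. Their part in the levels of the members was not tested.

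The inhibitors were then compared with each other, which tests whether their effects differ, again with the kit on the side of SIS3. Sparc and Thbs2 were lower with SIS3 than with SB431542, which is 2 of 9 members called lower, against 1.95% of all genes, and 0 of 9 called higher, against 0.499% of all genes (2.44% in either direction). Fold changes were negative for 6 of 9 members and for 51.7% of all genes. Sparc had 78.72 and 99.71 CPM in the SIS3 libraries, against 268.3 CPM in SB431542 (log2 fold change -1.61, SE 0.28, 95% CI -2.215 to -1.004, edgeR adjusted p = 0.00786). Thbs2 had 29.69 and 16.87 CPM in SIS3, against 104.4 CPM in SB431542 (log2 fold change -2.19, SE 0.35, 95% CI -2.97 to -1.41, edgeR adjusted p = 0.00858). For both genes each SIS3 library was below the lone SB431542 library. Both calls ended when only genes averaging at least 5 CPM were kept (adjusted p = 0.0668 for Sparc and 0.0767 for Thbs2) and with the newer form of the quasi-likelihood fit (adjusted p = 0.062 for both).

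The other 7 members were not shown to differ between the inhibitors. Sparcl1 had a log2 fold change of -1.61 (SE 0.46, 95% CI -2.64 to -0.59, edgeR adjusted p = 0.128). Fn1 had 1581 and 1539 CPM with SIS3, against 934.9 CPM with SB431542, a log2 fold change of 0.72 (SE 0.27, 95% CI 0.13 to 1.31, edgeR adjusted p = 0.235). The interval of the log2 difference was -1.43 to 0.15 around -0.64 for Cthrc1 and -0.21 to 1.03 around 0.41 for Smoc2. The intervals of Postn (-2.19 to 2.63), Tnc (-6.16 to 5.55) and Tnn (-2.33 to 1.30) were too wide to bound the difference usefully. As readouts of the pathway, Skil, which encodes a Smad corepressor induced by TGF-beta, had 256.0 and 163.0 CPM with SIS3, against 48.3 CPM with SB431542 (log2 fold change 2.10, SE 0.38, edgeR adjusted p = 0.0115). Pmepa1, a Smad target that dampens TGF-beta signalling, had 42.0 and 35.3 CPM with SIS3, against 13.4 CPM with SB431542 (log2 fold change 1.51, SE 0.37, edgeR adjusted p = 0.0479). Sparc and Thbs2 were thus lower with SIS3 than with SB431542 while both readouts were higher. The call of Pmepa1 was lost under 7 of 14 alternatives, with an adjusted p up to 0.135, also without either SB431542 column (0.0596 and 0.052). That of Skil was lost under 3 of 14 (up to 0.093). Against E12.5 DMSO neither readout was called with SIS3. Skil had 171.0 CPM in E12.5 DMSO (log2 fold change of SIS3 against DMSO 0.22, SE 0.34, edgeR adjusted p = 0.815). Pmepa1 had 49.2 CPM there (log2 fold change -0.42, SE 0.34, edgeR adjusted p = 0.594).

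The third comparison set E13.5 DMSO against E12.5 DMSO as a measure of stage, within 1 kit and with 1 library against 1. Of the members 0 were called, where 4.06% of all genes were called higher and 1.17% lower (5.23% in either direction). Before adjustment, 2926 genes were higher and 1690 lower at a p under 0.05 in edgeR, while the DESeq2 alternative called 439 genes higher and 135 lower. Of the members, 6 had positive and 3 negative fold changes, where 50.0% of all genes were negative, with a median log2 fold change of 0.16 against -0.000754 over all genes.

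Cthrc1 had 59.25 CPM at E13.5, against 36.58 CPM at E12.5, which gave the highest fold change of the members (log2 fold change 0.73, SE 0.42, 95% CI -0.19 to 1.64, edgeR adjusted p = 0.320). Sparc had 484.3 CPM at E13.5, against 355.5 CPM at E12.5 (log2 fold change 0.48, SE 0.34, edgeR adjusted p = 0.416), and Thbs2 had 313.1 CPM, against 247.1 CPM (0.37, SE 0.41). Each member differed from E12.5 DMSO by more than counting error, 6 upward and 3 downward, but none beyond the spread the fit assumes. The share of all genes beyond counting error was not computed here either. Sparcl1 had 57.59 CPM at E13.5, against 48.97 CPM at E12.5, Postn had 1268 CPM, against 1157 CPM, and Fn1 had 1261 CPM, against 1169 CPM. Tnc had 624.4 CPM at E13.5, against 755.8 CPM at E12.5 (log2 fold change -0.24, SE 1.38), Tnn had 67.01 CPM, against 93.46 CPM (-0.45, SE 0.78), and Smoc2 had 196.2 CPM, against 212.3 CPM (-0.08, SE 0.33). The signs of Postn, Tnc and Smoc2 turned with trends on GC content and length removed, so none of these 3 has a settled direction. The summed level of 8 osteoblast markers was 1094 CPM at E13.5, against 614.8 CPM at E12.5, and that of 7 erythroid markers was 306.7 CPM, against 967.8 CPM. Their part in the levels of the members was not tested.

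Other matricellular genes were set beside the members from a list of 20, of which 16 were tested. In SIS3 against DMSO 2 were lower and 0 higher, with a median log2 fold change of -0.60. Ccn4, which encodes a Wnt-induced secreted protein of the CCN family, had 11 and 14.9 CPM in SIS3, against 46.7 CPM in E12.5 DMSO (log2 fold change -1.92, SE 0.37, edgeR adjusted p = 0.0101). Spock2, which encodes a testican of the SPARC family, had 33.2 and 23.3 CPM in SIS3, against 74.4 CPM in E12.5 DMSO (-1.47, SE 0.34, adjusted p = 0.0302). Thbs1, the closest relative of Thbs2, had 237.0 and 215.0 CPM in SIS3, against 237.0 CPM in E12.5 DMSO (-0.14, SE 0.29, 95% CI -0.76 to 0.48). Smoc1, the relative of Smoc2, had 17.5 and 14.3 CPM, against 19.5 CPM (-0.37, SE 0.43). Thus Thbs2 was low where Thbs1 stood near its DMSO level, although the difference between these genes was not tested. Tgfbi, a TGF-beta-induced relative of Postn, had 279.0 and 134.0 CPM in SIS3, against 144.0 CPM in E12.5 DMSO, Ccn2 had 45.9 and 20.8 CPM, against 46.5 CPM, and Fstl1, a follistatin-like member of the SPARC family, had 487.0 and 585.0 CPM, against 787.0 CPM. These 3 were not called. In SB431542 against DMSO 0 of the 16 were called (median -0.43), and in the stage comparison 0 (median 0.34).

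Of 15 receptors of matricellular proteins, 3 fell in SIS3 and 0 were called higher, at a median log2 fold change of -0.26. Itgb5, which encodes an integrin beta chain, had 169.0 and 178.0 CPM in SIS3, against 424.0 CPM in E12.5 DMSO (log2 fold change -1.36, SE 0.27, edgeR adjusted p = 0.0126). Cd44, which encodes the hyaluronan receptor, had 20.3 and 9.02 CPM in SIS3, against 104.0 CPM in E12.5 DMSO (-2.91, SE 0.47, adjusted p = 0.0204), and was also lower with SIS3 than with SB431542 (-2.57, SE 0.47, adjusted p = 0.0408), a call lost under 5 of 14 alternatives (up to 0.106). Cd36, a thrombospondin receptor of endothelium and macrophages, had 1.17 and 1.06 CPM in SIS3, against 7.62 CPM in E12.5 DMSO (-2.85, SE 0.66, adjusted p = 0.0301). The fibronectin receptor chains were not called. Itga5 had 60.2 and 111.0 CPM in SIS3, against 93.2 CPM in E12.5 DMSO, Itgb1 had 378.0 and 318.0 CPM, against 403.0 CPM, and Itgav had 161.0 and 151.0 CPM, against 257.0 CPM. In SB431542 and in the stage comparison 0 of 15 were called (medians -0.09 and -0.06).

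Of 8 condensation and adhesion genes, 1 fell in SIS3 and 0 were called higher, at a median log2 fold change of -0.26. It was Sdc3, a syndecan, with 46.7 and 47.7 CPM in SIS3, against 110.0 CPM in E12.5 DMSO (log2 fold change -1.29, SE 0.29, edgeR adjusted p = 0.0267). The cell adhesion genes Cdh11, with 537.0 and 647.0 CPM in SIS3, against 753.0 CPM in E12.5 DMSO, and Ncam1, with 266.0 and 172.0 CPM, against 291.0 CPM, were not called. Vcan, which encodes the proteoglycan versican, had 1740 and 1880 CPM in SIS3, against 1730 CPM in E12.5 DMSO (log2 fold change -0.01, SE 0.26, 95% CI -0.57 to 0.55). Of 9 matrix partners (5 collagens, Lox, Fbn1, Bmp1 and Ltbp1), 6 fell in SIS3 and 0 were called higher, at a median log2 fold change of -1.16. Col1a1, which encodes the main chain of type I collagen, had 610.0 and 606.0 CPM in SIS3, against 3330 CPM in E12.5 DMSO (-2.53, SE 0.25, adjusted p = 6.41e-05), and was also lower with SIS3 than with SB431542 (-1.66, SE 0.25, adjusted p = 0.00283). Lox, which encodes the collagen cross-linking enzyme lysyl oxidase, had 48.0 and 45.5 CPM in SIS3, against 191.0 CPM (-2.10, SE 0.29, adjusted p = 0.00119). Fbn1 (-1.21, adjusted p = 0.0222) and Col6a1 (-1.21, adjusted p = 0.0251) fell less. In SB431542 and in the stage comparison 0 of 8 and 0 of 9 were called, with medians for the matrix partners of -0.43 and 0.59.

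Of 17 genes of the TGF-beta and activin pathway, 2 fell in SIS3 and 0 were called higher, at a median log2 fold change of 0.05. Tgfb1, which encodes the ligand TGF-beta 1, had 4.84 and 7.11 CPM in SIS3, against 31.9 CPM in E12.5 DMSO (log2 fold change -2.48, SE 0.39, edgeR adjusted p = 0.00326). Tgfbr2, which encodes the type II receptor, had 78.9 and 55.2 CPM in SIS3, against 160.0 CPM in E12.5 DMSO (-1.33, SE 0.31, adjusted p = 0.0322). Both were also lower with SIS3 than with SB431542 (-2.26, adjusted p = 0.00675, and -1.42, adjusted p = 0.0288), calls that were lost under 3 of 14 alternatives for Tgfb1 (adjusted p up to 0.0672) and 5 of 14 for Tgfbr2 (up to 0.124). The feedback gene Smad7 had 85.7 and 83.8 CPM in SIS3, against 120.0 CPM in E12.5 DMSO (-0.58, SE 0.29) and was not called. None of the 17 was called in SB431542 or in the stage comparison, Pmepa1 (13.4 CPM in SB431542, against 49.2 CPM in E12.5 DMSO; adjusted p = 0.534) and Skil (48.3 CPM, against 171.0 CPM; adjusted p = 0.635) included. Of the genes named from these lists, Col1a1, Lox and Tgfb1 kept their calls in SIS3 against DMSO under 14 of 14 alternatives. Ccn4, Itgb5, Fbn1, Cd44, Spock2, Cd36, Sdc3, Col6a1 and Tgfbr2 were each called under 9 to 12 of them.

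The members did not share 1 profile over the 5 libraries. As the Euclidean distance between log2 levels, each centred on its own mean, the closest members were Fn1 and Smoc2 (0.611), followed by Postn and Tnc (0.802), Tnc and Tnn (0.809) and Sparc and Cthrc1 (0.892). The most distant pair was the neighbouring genes Thbs2 and Smoc2 (4.44). Among 12322 other genes averaging at least 5 CPM, the nearest to Fn1 was Cers4 (0.0624), to Smoc2 Crebzf (0.0679), to Postn Ahrr (0.116), to Tnc Cdk1 (0.199), to Sparc Pcsk6 (0.226), to Cthrc1 Coro2b (0.255), to Thbs2 Pitpnm3 (0.296), to Sparcl1 Dio3 (0.302) and to Tnn Pimreg (0.33). The mean profile of the 9 members lay near those of H2bc12 (0.126), Gpx7 (0.222), Kpna2 (0.229) and Ercc6l (0.231). With 5 libraries many genes lie this near, and the distances only describe the profiles.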

How the data were processed

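RNA-seq was done on total RNA of cultured mouse molar tooth germs. The values used are estimated counts per gene, deposited by the authors as unscaled whole numbers. Per the submitters' processing notes, the tools were DESeq2, deepTools, HISAT2, Salmon and SAMtools, in roles not stated there, with the build mm10. No source used here states the annotation or the counting options. If Salmon made the counts, reads matching several transcripts were shared out by estimation. Per the labels' protocols the SIS3 libraries were prepared with the TruSeq RNA kit v2 (a poly(A) selection kit) and the others with the SMARTer kit (random priming).

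All 8 columns were matched to samples by name. Paired columns of the 3 SMARTer groups were summed, since they differed by about the sampling noise, or a few times more for genes with many transcripts, and far less than the SIS3 pair. The 5 libraries were fitted with edgeR 4.0.16 (R 4.3.3): TMM, filterByExpr (19022 genes), quasi-likelihood F test with robust estimates and legacy=TRUE, group only, Benjamini-Hochberg adjustment at 0.05 over all genes in each of 4 comparisons. The spread rests on 1 residual degree of freedom (the SIS3 pair) and 12.5 borrowed across genes, with a common biological coefficient of variation of 29.3%. The fit takes each lone library to vary like the SIS3 pair. Standard errors are the log2 fold change over the square root of F. Totals ran from 5995709 to 30975010 counts, and intervals of ratios cover counting error only. The script was tested on simulated counts.

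The members and lists were chosen with earlier results of these data known. Genes named beyond the members are, per pathway list and comparison, those called where at most 5 were and otherwise the 4 with the smallest adjusted p, plus genes named whatever their values; marker lists are given by counts and sums, and a few genes this rule names are not reported here. The fit of all 8 columns with and without the replicate number, DESeq2 1.42.0, other scalings, filters, subsets and left-out columns were alternatives. Gene positions and lengths are from the GENCODE annotation of GRCm38, and promoters from RefSeq.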

Additional observations from a re-analysis of the deposited data

Results flagged for a closer look

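In 2 members the effect of SIS3 differed from that of SB431542 by the test of the difference itself, edgeR's contrast of the inhibitors at an adjusted p under 0.05. For Sparc the SIS3 effect minus the SB431542 effect was -1.61 on the log2 scale (adjusted p = 0.00786), with both SIS3 libraries below SB431542. For Thbs2 it was -2.19 (adjusted p = 0.00858), also with both SIS3 libraries below SB431542. The SIS3 libraries were made with another kit than the SB431542 library, so kit and inhibitor cannot be told apart. No group had the 4 samples needed to look for single samples far from the others.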

How the results depend on the processing

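Of 522 tested values of single members under alternatives, 481 kept their direction and side of the threshold, 26 passed it only in the alternative, 10 no longer passed it and 5 changed sign; the cause was not tested. With all 8 columns as separate samples and no replicate block, 7 members were called in SIS3 against DMSO, 3 in SB431542 against DMSO, 2 in the stage comparison and 6 in SIS3 against SB431542, where 38.1%, 1.46%, 54.9% and 32.7% of the 17748 genes tested were called. With the replicate block these counts were 7, 0, 2 and 6 (34.9%, 0.468%, 52.2% and 29.2% of all genes). Columns that share a number did not deviate together (correlations from -0.075 to 0.042 over 12380 genes). The SMARTer columns differ by about sampling noise or a few times more, so these correlations cannot show whether the numbers pair the samples. Treating near-identical columns as replicates understates the spread. Without a filter 5 members were called in SIS3 against DMSO, where 5.13% of the 27543 genes tested were. In SIS3 against SB431542, 0 members were called with genes of at least 5 CPM, where 0.689% of the 12345 genes tested were. With legacy=FALSE, a setting chosen after seeing the data, 0 members were called there, where 0.484% of the 19022 genes tested were. The sign turned, never with a call, for Postn in SIS3 against DMSO with library totals only (0.0137), for Smoc2 in the stage comparison with genes of at least 5 CPM (0.0098), and for Postn (-0.57), Tnc (0.18) and Smoc2 (0.11) there with trends on GC content and length removed. The call of Sparcl1 in SIS3 against DMSO ended with genes of at least 5 CPM (adjusted p = 0.123), only the libraries of the 2 groups (0.106), those trends removed (0.0933), legacy=FALSE (0.0885), receptor and predicted genes left out (0.064) and the second E12.5 DMSO column left out (0.0533).

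Counts over all genes moved more. For SIS3 against DMSO 727 genes were called, and 6764 with 8 columns, 6194 with the replicate block, 1414 unfiltered, 400 with trends removed, 339 without predicted genes, 255 with legacy=FALSE, 232 with the 2 groups only and 130 at 5 CPM or more. For SB431542 the count was 0, and 259, 83 (with the block), 27 unfiltered, 4 with DESeq2 and 1 without the first SB431542 column. For the stage comparison it was 995, and 9742, 9260 (with the block), 2615 with legacy=FALSE, 2062 unfiltered, 574 with DESeq2, 337 with trends removed, 192 at 5 CPM or more, 61 without predicted genes, 419 and 399 without an E13.5 column, and 847 and 662 without an E12.5 column. For SIS3 against SB431542 it was 465, and 5805, 5191 (with the block), 1027 unfiltered, 262 with trends removed, 209 without predicted genes, 166 with the 2 groups only, 92 with legacy=FALSE and 85 at 5 CPM or more. Leaving out a SIS3 library leaves no residual degree of freedom, so only values are given for each library, and the fit of 2 groups alone could be made only with SIS3. With 1 library per SMARTer group large differences go uncalled, such as Pmepa1 in SB431542 against DMSO (log2 fold change -1.93, adjusted p = 0.534).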
